A study of Mus musculus with 42 samples.

Results

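The claudins described here are 10 genes of the family, Cldn1, Cldn3, Cldn4, Cldn5, Cldn6, Cldn7, Cldn8, Cldn9, Cldn11 and Cldn18, out of 32 claudin genes and 22278 genes with a probe on the array. Each gene was read through the probe whose RefSeq accession belongs to it, and the brightest probe over all 42 arrays was used where there was more than 1, which was so for Cldn4. Mouse embryonic stem cells (ESCs) carrying fluorescent reporters knocked in to the Gsc and Hhex loci were differentiated towards anterior definitive endoderm (ADE), the tissue that lines the front of the early gut. RNA was measured on one-colour Agilent arrays in 14 groups of 3 arrays each, which the submitters describe as independent experiments. The untreated groups were ESCs, day 2 cells (d2), d3 and d4 cells sorted as GSC-negative (G-) or GSC-positive (G+), d5 cells sorted as G-, Glow or Ghigh, and d6 GSC-high cells sorted without (G+H-) or with (G+H+) HHEX. The other groups were d6 cultures given DMSO throughout (Control), 2.5 µM EPZ6438 before differentiation and DMSO during it (ES_EPZ), or DMSO before and 2.5 µM EPZ6438 during it (ADE_EPZ). EPZ6438 inhibits EZH2, the methyltransferase of the Polycomb complex PRC2 that places H3K27me3. All groups derive from 1 dual reporter line, and the labels name no sort for the 3 EPZ6438 regimens.

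Claudins are small proteins that cross the cell membrane several times and join neighbouring epithelial cells at tight junctions. Their extracellular loops decide which ions and solutes pass between the cells, so that the set of claudins a cell makes sets how leaky its epithelium is. Epithelial cells that pass through the primitive streak loosen their junctions as they form mesendoderm, and the definitive endoderm is again an epithelium.

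Levels are log2 normalised intensities, and a level can be compared between groups for 1 probe but not between probes. A gene was called where limma gave a Benjamini-Hochberg adjusted p of at most 0.01 over all probes and its means differed by 1.5 or more on the log2 scale, in either direction. Values after ± are SDs of 3 arrays unless they are named as SEs. On each array 25884 to 40394 probes of the untreated groups and 24446 to 34788 probes of the EPZ6438 series were well above background. The untreated arrays were scanned on 2 days, with replicate 3 of every group on the second, and the EPZ6438 series on another day on 3 slides of its own, each with 1 array of each regimen. In these bulk samples fewer cells of a type and less RNA per cell cannot be told apart. The mRNA of the sorted genes was checked against the labels. Gsc had means of 8.27, 9.35 and 9.04 in d3, d4 and d5 G- and was above background on all of these arrays, below the 11.82, 11.77 and 13.02 of d3 G+, d4 G+ and d5 Ghigh, and Hhex was above background in both d6 groups, with means of 12.23 in G+H- and 12.71 in G+H+. The G- and H- groups were thus not free of the mRNA they were sorted against, and the log2 difference of Hhex between the d6 groups, 0.48 with an SE of 0.40, was not called (adjusted p = 1, limma). All 5 of the endoderm markers Sox17, Foxa2, Cer1, Hhex and Cxcr4 were above background on every d6 G+H+ array, where their summed intensity was 16.47 to 16.63 on the log2 scale, and Sox17, Cer1 and Cxcr4 were above background on no ESC array, where the sum was 8.17 to 8.77.

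Cldn6, Cldn7 and Cldn9 were above background on all 42 arrays, Cldn3 and Cldn4 on 41 each, Cldn5 on 36 and Cldn11 on 22. Cldn8 reached it on 3 arrays, which were the 3 of d6 G+H+. Cldn18 reached it on 1 array and Cldn1 on none, so that no level can be given for Cldn1, the main claudin of the skin barrier, or Cldn18, the claudin of lung and stomach epithelium. No marker of a lung and stomach list (Nkx2-1, Sftpc, Gkn1, Tff1, Tff2) was above background on all 3 arrays of any group.

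**Figure D1:**
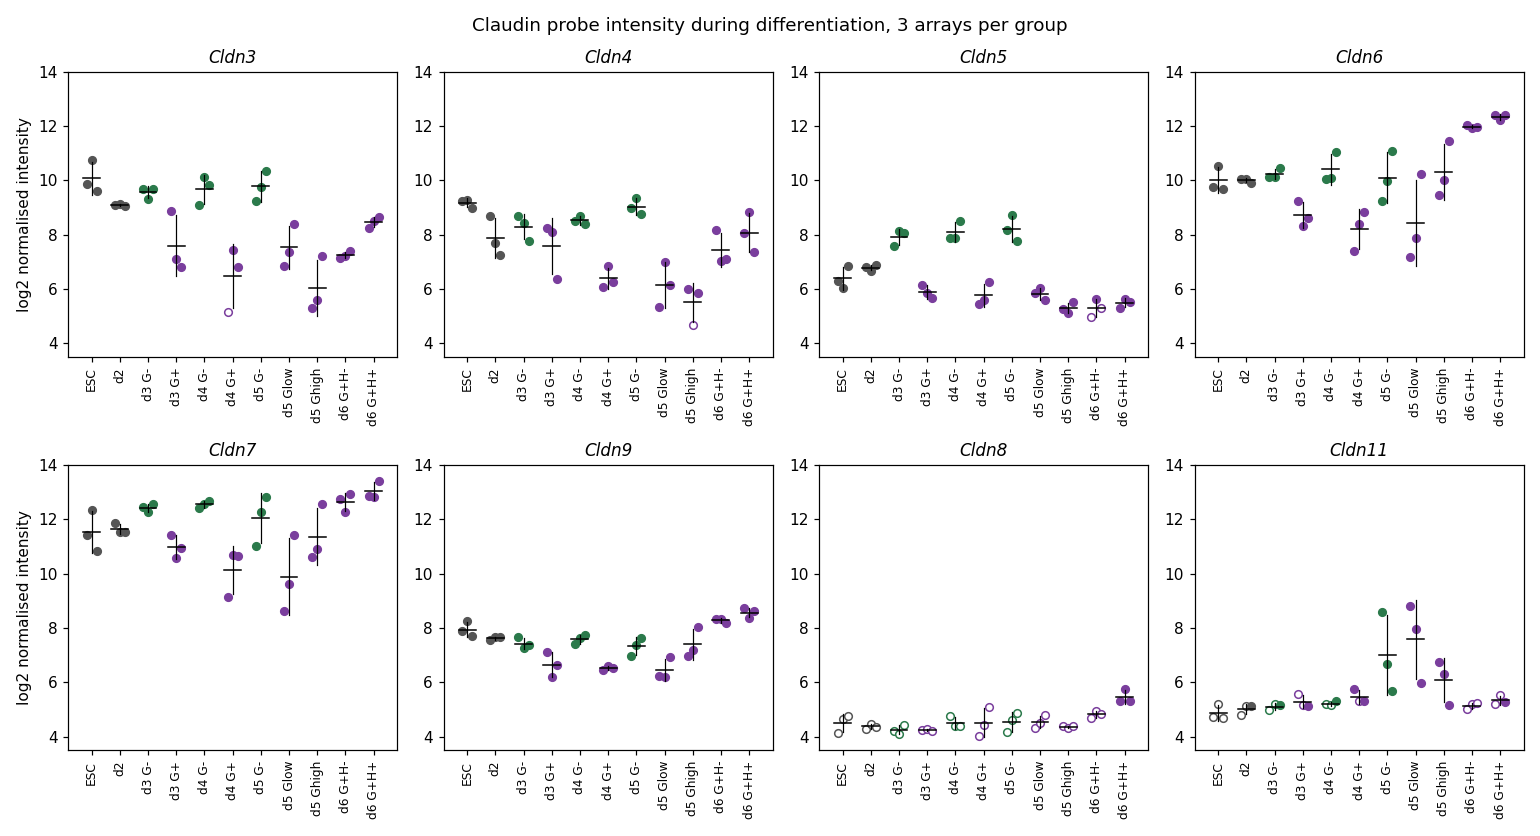
Log2 normalised intensity of 8 claudins (vertical axes) in the 11 untreated groups (horizontal axes). Each point is an array, hollow where the probe was not well above background, and bars give the mean and SD of 3 arrays. Grey marks ESCs and d2, green the G- groups and purple the groups sorted for GSC. Cldn3, Cldn4, Cldn6 and Cldn7 dip in d4 G+, and Cldn6 is highest in d6 G+H+ with a mean of 12.34.

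The sorted pairs ask how cells that have switched on GSC, a gene of the primitive streak and mesendoderm, differ from GSC-negative cells of the same day. In d4 G+ 5 of the 10 claudins were lower than in d4 G-, against 1.4% of all genes lower in that comparison, and 0 were higher, against 0.79% of all genes. The 5 were Cldn3, Cldn4, Cldn5, Cldn6 and Cldn7, and their arrays did not overlap between the groups. The share of all genes without such overlap was not counted.

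Cldn3, a sealing claudin of many epithelia, had levels of 9.08, 10.11 and 9.83 in d4 G- and of 5.17, 7.45 and 6.82 in d4 G+. It fell by 3.19 on the log2 scale with an SE of 0.55, a 9.15-fold difference (adjusted p = 0.000223, limma), and its lowest d4 G+ array was not above background. Cldn7, an epithelial claudin that binds EpCAM, had levels of 12.41, 12.57 and 12.68 in d4 G- and of 9.13, 10.67 and 10.64 in d4 G+. Every G+ array was thus over 1 log2 unit below the lowest G- array, and the mean was 5.31-fold lower (adjusted p = 0.00175, limma).

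Cldn6, a claudin of embryonic epithelia, had levels of 10.05, 10.10 and 11.06 in d4 G- and of 7.41, 8.39 and 8.83 in d4 G+, a 4.56-fold fall (adjusted p = 0.00528, limma). Cldn4, a partner of Cldn3 in sealing epithelia and its neighbour on chromosome 5, had levels of 8.52, 8.70 and 8.38 against 6.08, 6.84 and 6.24, a 4.43-fold fall (adjusted p = 0.00957, limma). That call lay close to the threshold and was kept in 7 of 11 alternatives, and leaving out any 1 of the 6 arrays ended it, whereas the second Cldn4 probe had a log2 difference of -1.85 (adjusted p = 0.00374, limma). Cldn6 kept its call without d4 G+ replicate 3 and lost it without any 1 of the other arrays. Cldn7 lost its call without d4 G- replicate 3 or d4 G+ replicate 1. Calls fell from 5 to 3 without d4 G- replicate 1, d4 G- replicate 2 or d4 G+ replicate 2, and to 2 without d4 G- replicate 3 or d4 G+ replicate 1. Cldn3 and Cldn5 were called in each of these refits.

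Cldn5, best known as the claudin of endothelial cells at the blood-brain barrier, stood apart from the rest because it was called on every day. Its levels in d3 were 7.57, 8.12 and 8.06 in G- and 6.15, 5.84 and 5.66 in G+, a log2 difference of -2.03 with an SE of 0.24 (adjusted p = 4.02e-07, limma). It was the only member called in d3, 1 of 10 lower and 0 higher against 1.01% of all genes lower and 0.664% higher, unless d3 G+ replicate 1 was left out, when Cldn3 was called too and the count was 2. In d4 the difference of Cldn5 was -2.33 with an SE of 0.24 (adjusted p = 7.17e-08, limma). The G- groups held more Cldn5 than ESCs, with means of 7.92 ± 0.30, 8.09 ± 0.37 and 8.23 ± 0.48 in d3, d4 and d5 against 6.39 ± 0.41. Cldn5 thus rose in all 3 by 1.53 to 1.84 on the log2 scale. These rises were 1.18, 1.33 and 1.45 with a normexp offset of 50, under the fold threshold. The call in d3 G- was also lost without ESC replicate 1 or 2 or d3 G- replicate 2 or 3, and that in d4 G- without d4 G- replicate 3. With no background correction the calls in d3 G- and d4 G- were both lost. That in d3 G- was also lost with only the arrays of the compared groups in the fit. A list of 5 endothelial markers (Pecam1, Cdh5, Tie1, Tek, Esam) moved with it in part. Its summed intensity on the log2 scale was 8.30 to 8.70 in d3 G- and 7.88 to 7.99 in d3 G+, without overlap, whereas the groups overlapped in d4, at 7.96 to 8.19 in G- and 7.72 to 8.22 in G+, and in d5, at 7.80 to 8.87 in G-, 7.93 to 8.48 in Glow and 7.97 to 8.10 in Ghigh. Esam, an endothelial adhesion protein, was called lower in d3 G+, with a mean of 5.12 against 6.80 in G- (adjusted p = 1.61e-06, limma), and its log2 difference in d4 was -1.08 (adjusted p = 0.00102, limma), under the fold threshold. Cdh5 went the other way. Its means were 5.22, 5.06 and 5.05 in d3, d4 and d5 G-, and 5.67, 5.28, 5.82 and 6.00 in d3 G+, d4 G+, d5 Glow and d5 Ghigh. Cdh5 was above background on all 3 arrays of d5 Glow and of d5 Ghigh. Against ESCs, where the list summed to 8.86 to 9.21, its sum was lower in d3 G- and d4 G- while Cldn5 was higher. Of the defining markers Pecam1 was above background on all 3 arrays of each G- group, Esam on 3, 3 and 1 in d3, d4 and d5, Cdh5 on 2, 1 and 1, Tek on 1 each and Tie1 on none. The part of endothelial cells in the Cldn5 levels was not tested.

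The remaining members moved less in d3 and d4. Cldn9, a claudin of the inner ear that lies beside Cldn6 on chromosome 17, had a mean of 7.58 ± 0.17 in d4 G- and 6.53 ± 0.07 in d4 G+, a log2 difference of -1.05 that passed the adjusted p (0.00272, limma) but not the fold threshold. In d3 G+ Cldn3, Cldn6 and Cldn7 had means 3.91-fold, 2.82-fold and 2.73-fold below those of G-, with adjusted p of 0.0313, 0.097 and 0.107 in limma, and no G+ array of the 3 genes reached its G- arrays. How many of all genes separated in this way in d3 was not counted. Over the 10 members the median log2 difference was -0.75 in d3 and -1.60 in d4, beside 0.02 over all genes in each. The change of the difference from d3 to d4 was tested as an interaction, and none of the 10 passed (smallest unadjusted p 0.0635, for Cldn4, limma).

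The summed mesenchymal markers were higher in d4 G+, while the epithelial markers were split. In d4 G+ Cdh1, the adhesion protein E-cadherin, was lower by a log2 difference of -2.04 (adjusted p = 0.00284, limma), and Snai1, a repressor of epithelial genes, was higher by 1.97 (adjusted p = 0.000211, limma). The summed intensity of the 5 mesenchymal markers Cdh2, Vim, Snai1, Zeb2 and Twist1 was 14.78 to 14.88 on the log2 scale in d4 G- and 15.58 to 15.84 in d4 G+, and all 5 were above background on every array of both groups. The summed intensity of the 5 epithelial markers Cdh1, Epcam, Krt8, Krt18 and Krt19 was not lower in G+, at 15.93 to 16.19 in G- and 16.09 to 16.46 in G+. This sum is weighted towards the brightest probe, Krt18, with means of 15.40 in d4 G- and 15.83 in d4 G+. The log2 means of the 5, added up, were lower in d4 G+, at 61.48 against 64.73 in d4 G-. Cdh1 was the only one of the 5 called. Epcam had a log2 difference of -1.72 (adjusted p = 0.0292, limma), and the keratins Krt8 and Krt18 had differences of 0.42 and 0.44 (adjusted p = 0.892 and 0.798, limma). Krt19 had a lower mean in d4 G+, 12.51 against 12.86 in d4 G-. The summed pluripotency markers (Pou5f1, Nanog, Zfp42, Esrrb, Klf4) were lower in d3 G+, d4 G+ and d5 Ghigh than in G- of the same day. They were 14.02 to 14.26 in d4 G- and 11.43 to 12.93 in d4 G+, and 14.17 to 14.51 and 12.46 to 13.32 in d3. In d5 they were 12.34 to 13.95 in G- and 10.29 to 11.20 in Ghigh, and none of these pairs overlapped. Those of d5 Glow, 10.56 to 12.44, did overlap d5 G-. Klf4 went the other way in d4 and d5, with means of 8.40 and 7.78 in G-, 9.13 in d4 G+ and 8.53 in d5 Ghigh. Whether these markers have a part in the claudin differences was not tested.

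The start regions of the 4 epithelial claudins that fell together in d4 G+ are shown because SNAI and ZEB proteins are known to bind the E-box CACCTG, whose other strand reads CAGGTG. The table of RefSeq promoters, on the mouse build GRCm38.p6, held 8 of the 10 members, without Cldn8 and Cldn9. Each line gives the 250 bases before the annotated start, 5′ to 3′ on the gene's strand, with the E-box in capitals.
Cldn3 (chr5:134985964-134986213, plus strand): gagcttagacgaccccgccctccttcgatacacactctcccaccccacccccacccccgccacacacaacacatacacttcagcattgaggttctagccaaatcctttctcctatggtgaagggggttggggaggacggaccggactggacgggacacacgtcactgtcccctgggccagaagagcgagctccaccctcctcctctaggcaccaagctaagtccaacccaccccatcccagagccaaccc
Cldn4 (chr5:134946935-134947184, minus strand): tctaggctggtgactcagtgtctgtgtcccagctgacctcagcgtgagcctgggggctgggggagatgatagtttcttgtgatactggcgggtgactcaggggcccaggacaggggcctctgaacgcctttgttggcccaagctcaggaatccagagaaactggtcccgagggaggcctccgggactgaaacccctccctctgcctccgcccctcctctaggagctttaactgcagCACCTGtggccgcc
Cldn6 (chr17:23679115-23679364, plus strand): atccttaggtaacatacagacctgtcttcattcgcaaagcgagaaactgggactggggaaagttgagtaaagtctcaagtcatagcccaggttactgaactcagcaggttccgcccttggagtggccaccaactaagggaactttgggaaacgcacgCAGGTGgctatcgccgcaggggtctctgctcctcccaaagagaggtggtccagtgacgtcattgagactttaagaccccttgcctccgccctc
Cldn7 (chr11:69965171-69965420, plus strand): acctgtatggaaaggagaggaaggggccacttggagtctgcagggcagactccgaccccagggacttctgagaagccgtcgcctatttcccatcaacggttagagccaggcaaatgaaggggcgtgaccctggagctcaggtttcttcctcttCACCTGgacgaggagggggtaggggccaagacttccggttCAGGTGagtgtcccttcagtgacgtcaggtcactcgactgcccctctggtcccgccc
The search of both strands found 1 match in Cldn4, 14 bases before the start, and 1 in Cldn6, 93 bases before it. Cldn7 has 2 annotated starts, and the one shown held matches 97 and 57 bases before it while the other held none. Cldn3 and Cldn5 held no match in this window, nor did Cldn1, Cldn11 or Cldn18. Of 32851 mouse promoters 17.2% held the motif in the same window. A match is a description of the letters and does not show that a protein binds there.

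On d5 the GSC-expressing cells were sorted by reporter level into Glow and Ghigh. In d5 Glow 2 of 10 members were lower than in d5 G-, beside 0.566% of all genes lower, and 0 were higher, beside 0.126%. Cldn4 had levels of 8.97, 9.37 and 8.76 in d5 G- and of 5.33, 7.01 and 6.13 in d5 Glow, a 7.34-fold fall (adjusted p = 0.0016, limma), and Cldn5 fell 5.28-fold (adjusted p = 2.22e-07, limma). With the replicate number as a block, 3 members were called, Cldn7 being added. The count was 1, Cldn5, without d5 G- replicate 2 or d5 Glow replicate 1, and 4, with Cldn6 and Cldn7 added, without d5 Glow replicate 3.

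Replicate 3 of d5 stood apart in several claudins. The Cldn7 levels in d5 Glow were 8.62 and 9.63 in replicates 1 and 2 and 11.41 in replicate 3, and those of Cldn6 were 7.19, 7.87 and 10.22. The same array order was seen in d5 G- and d5 Ghigh: Cldn6 had 9.24, 9.97 and 11.09 in G- and 9.46, 10.00 and 11.46 in Ghigh. Replicate 3 was also on the second scan day, and the part of either in these values was not tested. With only the first scan day, the calls numbered 1 in d5 Glow against G-, and 4 in d4 G+ against G-.

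The comparison of d5 Ghigh with d5 G- was added after the values had been seen. Here Cldn3, Cldn4 and Cldn5 were lower, 3 of 10 beside 1.54% of all genes lower, and 0 were higher, beside 0.934%. Cldn3 had levels of 9.23, 9.77 and 10.35 in d5 G- and of 5.30, 5.59 and 7.22 in d5 Ghigh, a 13.4-fold fall (adjusted p = 1.98e-05, limma), which was the lowest mean of Cldn3 in any group. Cldn4 fell 11.5-fold (adjusted p = 2.34e-05, limma) and Cldn5 7.62-fold (adjusted p = 5.17e-10, limma). The 3 members were called in each of the 6 refits without 1 array.

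Cldn6, Cldn7 and Cldn9 did not follow them in d5 Ghigh. Their log2 differences from d5 G- were 0.21, -0.68 and 0.07 with SEs of 0.50, 0.49 and 0.23, and the arrays overlapped. The difference of Cldn6 between GSC-expressing and G- cells thus went from -2.19 in d4 to 0.21 in d5 Ghigh, a change of 2.40 with an SE of 0.71 (adjusted p = 0.323, limma, not past the threshold), and that of Cldn9 changed by 1.12 with an SE of 0.32 (adjusted p = 0.262, limma). From d3 to d5 Ghigh the difference of Cldn4 changed by -2.80 with an SE of 0.74 (adjusted p = 0.069, limma). None of the 30 changes tested in the 10 members passed.

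**Figure D2:**
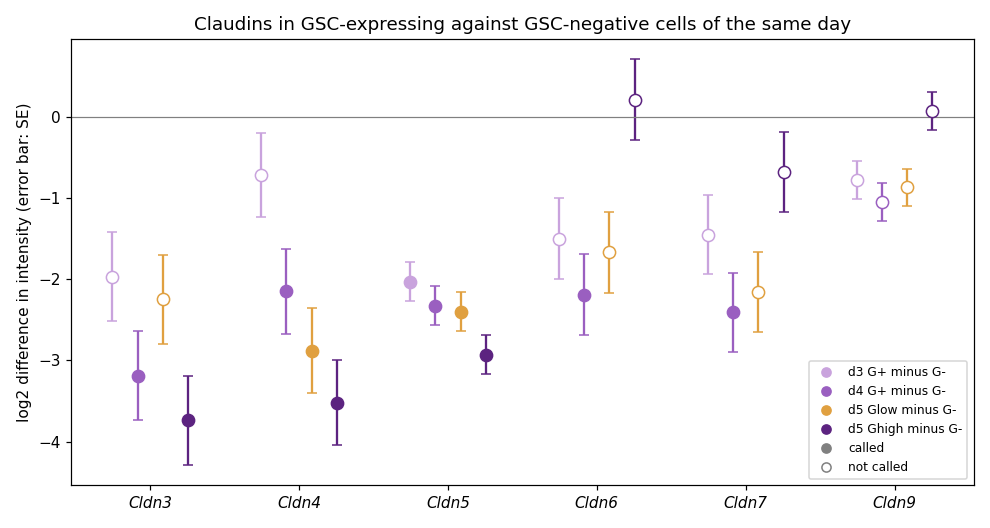
Log2 difference in intensity between GSC-expressing and GSC-negative cells of the same day (vertical axis) for 6 claudins (horizontal axis), with the SE of the limma fit on 3 arrays per group. Filled points were called. Cldn3, Cldn4 and Cldn5 lie lowest in d5 Ghigh, at -3.74, -3.52 and -2.93, where Cldn6 and Cldn9 lie near 0.

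Ghigh and Glow of d5 were compared directly, and limma called 0 of 10 members, beside 0.224% of all genes higher and 0.0224% lower. At an unadjusted p under 0.05 Cldn6, Cldn7 and Cldn9 were higher and Cldn3, Cldn5 and Cldn11 lower, 6 of 10 beside 10.9% of all genes in either direction. The log2 difference of Cldn9 was 0.94 with an SE of 0.23 (adjusted p = 0.0463, limma), and every Ghigh array (6.97, 7.17 and 8.04) was above every Glow array (6.24, 6.20 and 6.93). Without d5 Glow replicate 3 the count was 2, Cldn6 and Cldn11. These groups share no slide.

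Cldn11 had a pattern of its own. It is the claudin of myelin and of Sertoli cells, and its level was near background until d5. The levels were 8.82, 7.96 and 5.97 in d5 Glow and 8.59, 6.69 and 5.69 in d5 G-. In ESCs they were 4.73, 5.20 and 4.69, all not well above background. Relative to ESCs it was at least 5.86-fold higher in d5 Glow (adjusted p = 5.74e-05, limma) and at least 3.88-fold higher in d5 G- (adjusted p = 0.00206, limma). In d5 Ghigh the levels were 6.75, 6.31 and 5.17, and on d6 the sorted cells with and without HHEX all lay between 5.00 and 5.53. In all 3 d5 groups replicate 3 was the lowest array, the reverse of Cldn6 and Cldn7. The call in d5 G- was lost without ESC replicate 1, ESC replicate 3 or d5 G- replicate 1, and with a normexp offset of 50, where the log2 difference was 1.35. Of an oligodendrocyte list Olig2 was above background on no array of the 3 d5 groups, and the sum of the list was 9.45 to 9.82 in d5 Glow and 9.55 to 10.07 in ESCs. A fibroblast list (Col1a1, Col1a2, Col3a1, Thy1, Pdgfrb) summed to 10.99 to 13.03 in d5 Glow and 9.65 to 10.85 in ESCs, but its members were split. Col1a1 and Pdgfrb had means of 11.02 and 10.55 in d5 Glow against 8.34 and 5.84 in ESCs. Col1a2, Col3a1 and Thy1 were lower in d5 Glow, at 8.89, 6.43 and 7.34 against 9.18, 6.73 and 7.98. The part of these lists in the Cldn11 level was not tested.

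The step from d5 Ghigh to d6 follows the cells into endoderm. In d6 G+H- limma called 0 of 10 members against d5 Ghigh, beside 1.33% of all genes higher and 0.736% lower, while at an unadjusted p under 0.05 Cldn3, Cldn4, Cldn6, Cldn7, Cldn8 and Cldn9 were higher, 6 of 10 beside 23.8% of all genes in either direction. The log2 differences of Cldn4 and Cldn6 were 1.93 and 1.67, with adjusted p of 0.0186 and 0.0372 in limma. Cldn4 was called with the slide as a random block, and Cldn6 without d5 Ghigh replicate 3 and with only the first scan day, a count of 1 each time.

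The comparison of d6 G+H+ with d5 Ghigh was likewise added after the values had been seen. Cldn3, Cldn4 and Cldn6 were higher, 3 of 10 beside 2.63% of all genes higher. Cldn4 rose from 6.00, 4.68 and 5.86 to 8.05, 8.82 and 7.36, a 5.92-fold difference (adjusted p = 0.000653, limma). Cldn3 rose from 5.30, 5.59 and 7.22 to 8.26, 8.49 and 8.64, a 5.38-fold difference (adjusted p = 0.00201, limma), and remained below its ESC arrays of 9.87, 10.75 and 9.60. Cldn6 rose from 9.46, 10.00 and 11.46 to 12.41, 12.22 and 12.40, a 4.10-fold difference (adjusted p = 0.00443, limma).

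These calls rested on few arrays. Without d5 Ghigh replicate 2 none of the 3 was called, and without d5 Ghigh replicate 1 or d6 G+H+ replicate 3 only Cldn4 was. Cldn6 was also lost without d6 G+H+ replicate 1 or 2. With only the first scan day 4 members were called. With the processed signal scaled by the 75th percentile Cldn3 and Cldn6 just missed the threshold (adjusted p = 0.0101 and 0.0174, limma). Cldn7 had a log2 difference of 1.68 (adjusted p = 0.0189, limma), and Cldn9 one of 1.17 that passed the adjusted p (0.000309, limma) but not the fold threshold.

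Cldn8, a claudin of the distal nephron, had levels of 5.31, 5.76 and 5.31 in d6 G+H+, the only group in which it was above background. Against d5 Ghigh, where it was not well above background, it was at least 1.76-fold higher (adjusted p = 0.000347, limma), which did not reach the fold threshold. Its d6 G+H- levels were 4.69, 4.94 and 4.83, all below those of G+H+.

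Markers of several cell types moved over the same step. From d5 Ghigh to d6 G+H+ Cdh1 rose by 2.48 (adjusted p = 0.000107, limma), while Snai1 fell by 2.39 (adjusted p = 4.57e-06, limma), each on the log2 scale, and Zeb2 was at least 6.94-fold lower (adjusted p = 2.41e-05, limma). The summed epithelial markers were 16.49 to 17.11 in d5 Ghigh and 17.55 to 17.80 in d6 G+H+. The summed mesenchymal markers were 15.23 to 15.53 in d5 Ghigh and 13.35 to 13.74 in d6 G+H+, where Zeb2 was above background on no array. A visceral endoderm list (Afp, Ttr, Amn, Cubn, Apob) summed to 8.22 to 8.81 in d5 Ghigh, 9.56 to 9.82 in d6 G+H- and 10.01 to 10.90 in d6 G+H+, without overlap. Of its members Ttr, a thyroid hormone carrier, rose by 3.12 (adjusted p = 9.73e-05, limma) and Amn by 1.95 (adjusted p = 7.84e-07, limma) on the log2 scale to d6 G+H+, whereas Afp was above background on no array there. The definitive endoderm markers summed to 14.12 to 16.00 in d5 Ghigh and 16.47 to 16.63 in d6 G+H+. The part of these markers in the claudin levels was not tested.

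HHEX-positive and HHEX-negative cells of d6 differed in no gene by this rule, so limma called 0 of 10 members beside 0% of all genes in each direction. At an unadjusted p under 0.05 Cldn3 and Cldn8 were higher in G+H+, 2 of 10 beside 5.82% of all genes in either direction. Cldn3 had levels of 7.15, 7.21 and 7.39 in G+H- and of 8.26, 8.49 and 8.64 in G+H+, a log2 difference of 1.21 with an SE of 0.55 (adjusted p = 1, limma).

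Over the whole path from ESCs to ADE Cldn6 was the only member called, and it was higher. Its levels were 9.76, 10.55 and 9.70 in ESCs and 12.41, 12.22 and 12.40 in d6 G+H+, 5.06-fold higher (adjusted p = 0.000388, limma), and it was called in all 11 alternatives and all 6 refits without 1 array. That was 1 of 10 members higher and 0 lower, beside 5.6% of all genes higher and 5.13% lower, so that the share was not far from the background. Cldn7 was 2.84-fold higher (adjusted p = 0.0211, limma) and was called without ESC replicate 2, when the count was 2. Cldn5 was lower by a log2 difference of -0.89 that passed the adjusted p (0.00385, limma) but not the fold threshold. Cldn8, above background on no ESC array, was at least 1.42-fold higher (adjusted p = 0.000683, limma), also under the fold threshold. Cldn9 was higher by a log2 difference of 0.63 (adjusted p = 0.0362, limma). After 2 days of differentiation limma called 0 of 10 members, beside 0.332% of all genes higher and 1.3% lower, and Cldn4 alone had an unadjusted p under 0.05, which 21.9% of all genes had, with a log2 difference of -1.30 (adjusted p = 0.171, limma).

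Against ESCs, the 10 differentiated populations gave 7 calls of a higher and 9 of a lower claudin. Cldn3 was lower in 5 populations, d3 G+, d4 G+, d5 Glow, d5 Ghigh and d6 G+H-, with log2 differences from -2.47 in d3 G+ to -4.04 in d5 Ghigh. The call in d3 G+ was lost without ESC replicate 2, d3 G+ replicate 2 or d3 G+ replicate 3. Cldn4 was lower in 3 populations, d4 G+, d5 Glow and d5 Ghigh, by -2.79, -3.02 and -3.67. Cldn6 was lower in d4 G+ (-1.79), a call that was kept in 1 of 6 refits without 1 array, that without d4 G+ replicate 3, and higher in both d6 populations. The rise in d6 G+H- (1.98) was not called without ESC replicate 1, ESC replicate 3 or d6 G+H- replicate 1. Cldn5 and Cldn11 were higher in 3 and 2 populations as given above, and Cldn7 and Cldn9 were called in none. Without ESC replicate 1, which is shared by all of these comparisons, the calls of a higher claudin numbered 4.

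These counts have a large background, since ESCs differed from the later populations in many genes. Of all genes 1.06% were higher and 1.26% lower in d3 G-, where 1 of 10 members was higher, and 1.41% and 1.68% in d4 G-, where 1 was higher. In d5 G- 2.07% were higher and 2.13% lower, with 2 members higher. In d3 G+ 2.79% of all genes were higher and 3.47% lower, with 1 member lower, and in d4 G+ 2.93% and 4.16%, with 3 members lower. In d5 Glow 3.38% were higher and 4.05% lower, with 1 member higher and 2 lower. In d5 Ghigh 3.49% were higher and 4.39% lower, with 2 members lower, and in d6 G+H- 4.91% in each direction, with 1 member higher and 1 lower. The median log2 difference of the 10 members ran from -1.02 in d5 Glow to 0.22 in d6 G+H+, where that of all genes ran from 0 to 0.03.

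In order of its means, Cldn6 ran from 8.21 ± 0.73 in d4 G+ over 8.43 ± 1.59 in d5 Glow to 8.74 ± 0.48 in d3 G+. A middle group between 10.00 and 10.40 followed, with ESCs, d2, the 3 G- populations and d5 Ghigh. The 2 groups of d6 came last, 11.98 ± 0.06 without HHEX and 12.34 ± 0.11 with it. Neighbours within the first 3 and within the middle group overlapped in their arrays. Cldn7 ran from 9.89 ± 1.41 in d5 Glow to 13.03 ± 0.32 in d6 G+H+. Cldn9 spanned less, from 6.46 ± 0.41 in d5 Glow to 8.57 ± 0.18 in d6 G+H+, with ESCs at 7.94 ± 0.27. Cldn3 and Cldn4 were highest in ESCs, at 10.07 ± 0.60 and 9.18 ± 0.17, and lowest in d5 Ghigh, at 6.04 ± 1.04 and 5.51 ± 0.72.

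Over the 11 untreated group means, Pearson's r was 0.952 between Cldn6 and Cldn9, 0.926 between Cldn3 and Cldn4, 0.905 between Cldn6 and Cldn7 and 0.864 between Cldn7 and Cldn9, given as descriptions of means that share arrays and slides. Cldn3 and Cldn4 are next to each other in the RefSeq gene order, as are Cldn6 and Cldn9. Among 15981 other genes above background in some group, those with the pattern most like Cldn6 were Marveld2 (r of 0.990), which encodes tricellulin, a protein of the corners where cells meet, Crb3 (0.981), a Crumbs polarity protein, and Catsper4 (0.981). Those most like Cldn7 were Esrp1 (0.960), an epithelial splicing factor, Tnk1 (0.945) and Cdh1 (0.938). For Cldn9 the first 3 were Mien1 (0.985), G630025P09Rik (0.978) and Mcf2l (0.973), for Cldn3 they were Cpt1c (0.977), B4galt4 (0.974) and Kif5c (0.961), and for Cldn4 they were Plcd1 (0.954), Dgkh (0.944) and Atp2a3 (0.936). Cldn5 was nearest to Mfap3l (0.966), Gpm6a (0.963) and Entpd2 (0.963). Cldn8 and Cldn11 were near background in most groups, and no similar genes are given for them.

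A list of 28 other junction genes, the scaffold, adhesion and polarity proteins that claudins work with, was read in the same way. In d4 G+ against G- 6 of 28 were lower and 0 higher, beside 1.4% and 0.79% of all genes, with a median log2 difference of -0.10 beside 0.02 over all genes. The 3 with the largest differences were Tjp3, a scaffold that binds claudin tails, at -2.72, Cgn, which encodes cingulin, at -2.49, and Crb3 at -1.96. In d3 4 of 28 were lower, beside 1.01% of all genes, led by Jam2 (-2.05), Cgn (-1.90) and Tjp3 (-1.89), and in d5 Glow 2 of 28, beside 0.566%, Tjp3 (-2.14) and Cgn (-1.68). Against d5 G- none of the 28 was called in d5 Ghigh by limma, where 6 were higher and 7 lower at an unadjusted p under 0.05 beside 20.8% of all genes.

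From d5 Ghigh to d6 G+H+ 8 of the 28 were higher and 1, Jam3 (-2.15), was lower, beside 2.63% and 1.37% of all genes. The largest rises were those of Marveld2 (2.03), Crb3 (1.87) and Epcam (1.78), on the log2 scale. In d6 G+H+ against ESCs 7 were higher, led by the adhesion proteins Cxadr (2.48) and F11r (2.06) with Marveld2 (2.10), and 3 were lower, beside 5.6% and 5.13% of all genes. Jam2 was at least 133-fold lower, Esam at least 4.28-fold lower and Prkci, a polarity kinase, 3.99-fold lower. In d2 against ESCs 2 were lower, beside 1.3% of all genes, Jam2 (-3.01) and Tjp3 (-1.52). In d6 G+H- against d5 Ghigh Marveld2 was higher (1.56) and Jam3 lower (-1.66), 1 of 28 in each direction beside 1.33% and 0.736% of all genes.

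**Figure D3:**
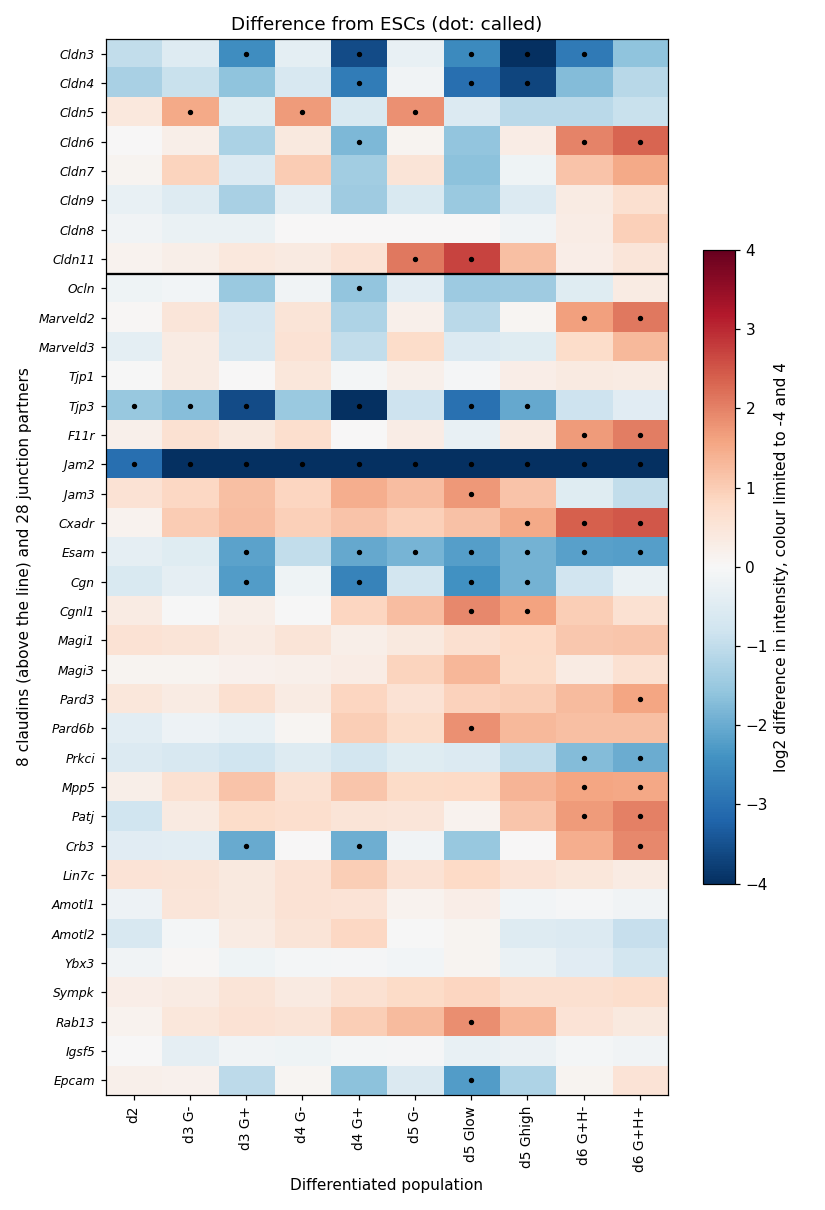
Log2 difference in mean intensity from ESCs for 8 claudins and 28 junction partners (rows) in the 10 differentiated populations (columns), with a dot where the gene was called and colours limited to -4 and 4. Cldn3, Cldn4, Tjp3 and Cgn are low in d4 G+, and Cldn6, Marveld2, F11r and Cxadr are high in d6 G+H+.

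The other 22 claudins of the array gave no call in any of the 13 comparisons between populations or regimens, where each had 22 of 22 not called by limma. In 15 of them no group had all 3 arrays above background. Of the 7 that did, Cldn12, a claudin without a PDZ-binding tail, was above background on all 42 arrays with means from 10.62 in ESCs to 11.57 in d4 G+, a log2 difference of 0.96 with an SE of 0.14 that passed the adjusted p (2.4e-06, limma) but not the fold threshold. Cldn23, also above background on all arrays, spanned 0.42 log2 units. Cldn10, Cldn14, Cldn15, Cldn17 and Cldn20 spanned 0.46 to 1.13 log2 units over the 14 groups.

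The EPZ6438 regimens ask what loss of PRC2 activity before or during differentiation does to the d6 culture. In ADE_EPZ against Control limma called 0 of 10 members, beside 1.85% of all genes higher and 0.75% lower, while 5 were higher and 0 lower at an unadjusted p under 0.05, beside 29.9% of all genes in either direction. The 5 were Cldn3, Cldn4, Cldn6, Cldn7 and Cldn9, and in each of them every ADE_EPZ array was above every Control array. The share of all genes whose arrays separated in this way was not counted. The median log2 difference of the 10 members was 0.69, beside 0 over all genes.

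Cldn6 had levels of 10.22, 10.57 and 10.47 in Control and of 12.08, 11.86 and 12.15 in ADE_EPZ, a log2 difference of 1.60 with an SE of 0.50 (adjusted p = 0.0339, limma). Within the 3 slides its differences were close to each other, from 1.57 to 1.64, and it was called where only the arrays of these 2 regimens were in the fit, a count of 1. Cldn3 had levels of 7.87, 7.06 and 6.69 in Control and of 9.63, 9.32 and 8.19 in ADE_EPZ, a 3.57-fold difference (adjusted p = 0.0259, limma). Cldn9 had the smallest adjusted p, 0.00372 in limma, but its log2 difference of 0.96 was under the fold threshold. The differences of Cldn4 and Cldn7 were 1.54 and 1.24, with adjusted p of 0.0556 and 0.119 in limma.

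In ES_EPZ limma called 0 of 10 members against Control, beside 0.337% of all genes higher and 0.0494% lower, and Cldn4, Cldn6 and Cldn9 had an unadjusted p under 0.05, all higher, beside 18.1% of all genes in either direction. Cldn4 had levels of 7.52, 6.28 and 6.46 in Control and of 9.89, 7.46 and 9.34 in ES_EPZ, so that the groups overlapped through ES_EPZ replicate 2. Its log2 difference was 2.14 with an SE of 0.52 (adjusted p = 0.025, limma), and its differences within slides ran from -0.07 to 3.43. It was called without ES_EPZ replicate 2 and with the slide as a random block, a count of 1 each time, and its second probe had a log2 difference of 1.95 (adjusted p = 0.00885, limma). Cldn6 differed by 1.03 with an SE of 0.50 and was higher on each of the 3 slides, by 0.85 to 1.27.

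The regimens were also set against each other, and limma called 0 of 10 members in ADE_EPZ against ES_EPZ, beside 0.112% of all genes higher and 0.0135% lower. Cldn5 alone had an unadjusted p under 0.05, which 12.6% of all genes had, with a log2 difference of 0.60 and an SE of 0.24 (adjusted p = 0.35, limma). Both regimens share the Control arrays, so their differences from Control are not independent.

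Among the 28 junction partners 2 were higher in ADE_EPZ than in Control, beside 1.85% of all genes, F11r by 1.80 and Ocln, which encodes occludin, by 1.68 on the log2 scale, and 0 were called in ES_EPZ or between the 2 regimens by limma, where 8 were higher and 3 lower, and 4 higher and 5 lower, at an unadjusted p under 0.05, beside 18.1% and 12.6% of all genes. In ADE_EPZ Cdh1 was higher by 2.17 (adjusted p = 0.000866, limma) and Snai1 and Zeb2 were lower, with log2 differences of -1.80 and -2.31 (adjusted p = 0.000385 and 0.000766, limma). The summed mesenchymal markers were 15.19 to 15.30 in Control and 14.04 to 14.83 in ADE_EPZ, the endoderm markers 14.15 to 14.67 and 15.66 to 16.14, the epithelial markers 16.62 to 16.95 and 17.36 to 17.52, and the pluripotency markers 9.94 to 10.63 and 10.82 to 11.16. Within the pluripotency list Pou5f1, Zfp42 and Esrrb had higher means in ADE_EPZ, while Klf4 went the other way, from 9.21 in Control to 8.43. Nanog (6.44 and 6.53), Cxcr4 (9.90 and 9.95) and Twist1 (7.77 and 7.76) had close means in Control and ADE_EPZ. The visceral endoderm list overlapped, at 9.60 to 9.89 and 9.39 to 10.26. The part of these markers in the claudin levels was not tested, and a shift in the share of cell types and a shift within cells cannot be told apart in these cultures.

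**Figure D4:**
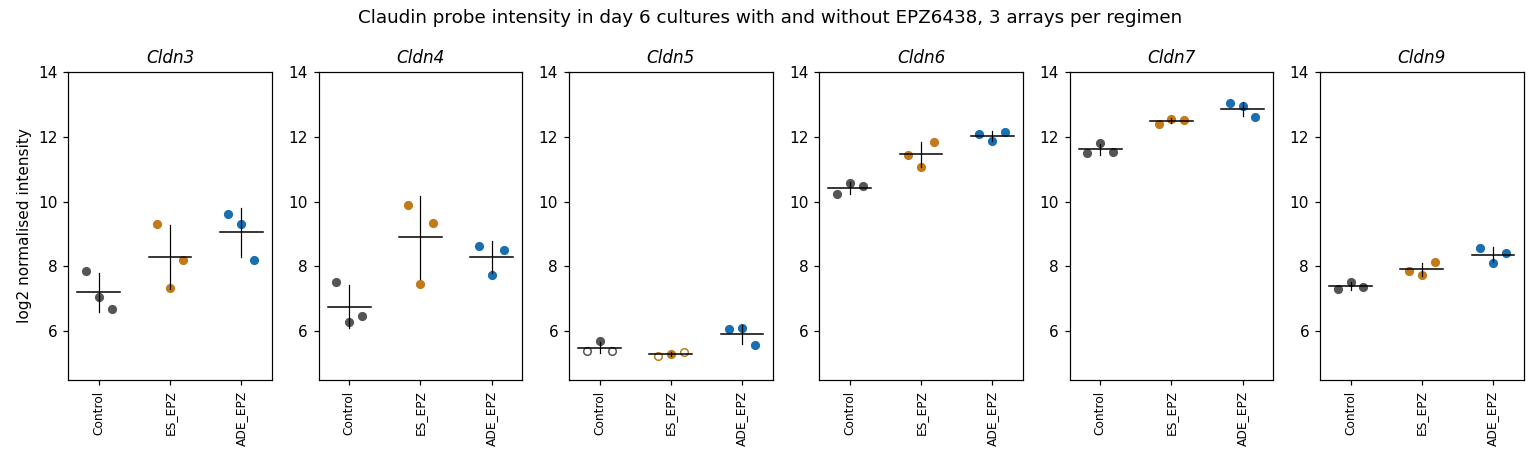
Log2 normalised intensity of 6 claudins (vertical axes) in the 3 regimens of the EPZ6438 series (horizontal axes). Each point is an array, hollow where not well above background, and bars give the mean and SD of 3 arrays. In Cldn3, Cldn4, Cldn6, Cldn7 and Cldn9 every ADE_EPZ array lies above every Control array, but none of them was called. The share of all genes that separate in this way was not counted.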

How the data were processed

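RNA was hybridised to Agilent SurePrint G3 mouse 8x60K one-colour arrays, and per the file headers the authors' scanner files hold Cy3 intensity per spot with quality marks. The deposited table of log2 values was made by the authors with limma from these intensities (normexp background correction, quantile normalisation, duplicate probes averaged). The log2 values were recomputed from the intensity of the scanner files for 55681 probes (normexp offset 10, quantile normalisation over 42 arrays), and correlated with the deposited log2 values at 0.999979 or more. Other marks, which flag spots above background or as outliers, were used as the authors deposited them.

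A linear model with 14 groups was fitted with limma 3.58.1 in R 4.3.3 and tested with eBayes. Genes are named through RefSeq accessions by their brightest probe, where 21865 of 23171 accessions matched a symbol. Array annotation was mm9 in the methods, and promoter coordinates are on GRCm38.p6. The members, gene lists and tests were chosen with earlier results of these data known. All 10 members are named. Other claudins are named where a group had 3 arrays above background, junction partners where called (the 3 largest in each direction), and similar genes are the first 3 by Pearson's r over 11 group means. 2 of 13 comparisons were added after the values were seen. Where a gene was not well above background on any array of 1 group, its fold is an approximate lower bound. It was taken against the dimmest probe well above background on each array, or the gene's own signal where that was higher. Replicate numbers paired the samples in the comparisons of G+ with G-, d5 Glow with G- and d5 Ghigh with Glow. They also did in d6 G+H- with d5 Ghigh, d6 G+H+ with G+H- and ADE_EPZ with ES_EPZ. This was judged from residuals alone, which there correlated above 0.1 between samples of the same number in every pair. Same-numbered ADE_EPZ and ES_EPZ arrays also shared a slide, so that slide and pairing cannot be told apart in that comparison. In d6 G+H+ with d5 Ghigh replicate 2 correlated at 0.124 with its own number and at 0.176 with another. In d5 Ghigh with G- these were 0.0778 and 0.135. The main fit paired no samples, and the replicate block was an alternative. 2 junction genes of the list are not reported here. Scripts were tested on simulated data. The number of arrays limits the precision.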

Additional observations from a re-analysis of the deposited data

How the results depend on the processing

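None of the 30 calls of a claudin in a comparison reversed in direction in any alternative or refit. With a normexp offset of 50 the calls of a higher claudin against ESCs numbered 3 in place of 7, since folds of dim probes shrank. With the processed signal scaled by the 75th percentile, the calls in d6 G+H+ against ESCs numbered 2, with Cldn8 added. With only the arrays of the compared groups in the fit, which leaves fewer arrays to estimate the spread, the calls numbered 2 in d4 G+ against G-, 0 in d5 Glow against G-, 0 in d6 G+H+ against d5 Ghigh, 2 in d6 G+H+ against ESCs, 1 in ADE_EPZ against Control, and 4 higher against ESCs. With the slide as a random block they numbered 1 in d6 G+H- against d5 Ghigh and 1 in ES_EPZ against Control. With only the first scan day, chosen after seeing the data, they numbered 1 in d5 Glow against G- and 1 in d6 G+H- against d5 Ghigh. With the replicate block the calls numbered 3 in d5 Glow against G- and 12 lower against ESCs in place of 9, and 5 in d4 G+ against G- as without it, and it changed the count of no other comparison. Against ESCs and against Control the residuals did not correlate above 0.1 in every pair of the same number, so pairing was not shown there, nor was its absence. In ADE_EPZ against Control the same number correlated at 0.171, 0.0702 and 0.118, each time above the other numbers. Same-numbered Control arrays lay on other slides than those of ADE_EPZ and ES_EPZ. Leaving out 1 array at a time, calls ranged from 1 to 2 in d6 G+H+ against ESCs, 4 to 8 higher and 7 to 12 lower against ESCs, 1 to 2 in d3, 2 to 4 in d4, 1 to 4 in d5 Glow against G-, 0 to 2 in d5 Ghigh against Glow, 0 to 1 in d6 G+H- against d5 Ghigh, 0 to 4 in d6 G+H+ against d5 Ghigh and 0 to 1 in ES_EPZ against Control, and stayed at 3 in d5 Ghigh against G- and at 0 in the other 4 comparisons. The causes of these changes were not tested otherwise. Signal over background limits Cldn1, Cldn8, Cldn11 and Cldn18.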
